A study of Danio rerio with 6 samples.

Results

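Methionine tRNAs of the zebrafish egg and early embryo were followed here through reads with the authors' labels iMet-CAT and Met-CAT. iMet-CAT stands for the initiator. Met-CAT was taken as the label of the elongator, although its reads lay 1 base from lysine tRNA reads. Members were all sequences of the cytoplasmic table whose amino acid label was iMet or Met. These were 13 of 3021 distinct read sequences, 10 under iMet-CAT and 3 under Met-CAT, and all 13 had reads in every library. Over the 6 libraries they held 4245 and 507 reads. The samples were wild-type TU fish, and each of 6 stages gave 1 library. These were the mature egg, the 1cell and 256cell stages, then sphere and shield, and 24hpf, which is 24 hours after fertilisation. Each library came from a pool of about 50 to 100 eggs or whole embryos, with no genotype or treatment that set the groups apart. RNA of 60 to 120 nt was cut from a gel, deacylated, repaired at its ends and treated with ALKB demethylases before sequencing.

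Methionine is carried to the ribosome by separate tRNAs with the same CAU anticodon. The initiator tRNA is brought to the small ribosomal subunit by the factor eIF2 and pairs with the start codon, while the elongator tRNA is delivered by eEF1A to methionine codons inside the reading frame. Both receive a CCA tail after transcription, and the amino acid is attached to the last base of that tail. The egg is loaded with maternal RNA, and the embryo's own genome is broadly transcribed only after the 256cell stage.

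The libraries held 3324546 to 7096801 reads, of which 1877927 to 4770871 were in the cytoplasmic table. Values are reads scaled to the size of the whole library (RPM) or shares of the listed cytoplasmic reads, a total made up mostly of His-GTG, and shares of listed reads are not shares of tRNA molecules. No stage was sampled more than 1 time, so differences between stages have no check against replicates. Intervals are 95% exact binomial intervals (Clopper-Pearson) that cover counting error only, since reads copied by PCR and not tagged by molecule are not independent. In whole embryos, fewer cells holding a tRNA and less of it per cell cannot be told apart.

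The reads on which the iMet-CAT results turn are printed 5′ to 3′ as they stand in the deposited table. They differ in the end they cover, in 1 base or in the tail. Capitals mark the anticodon, the base that differs between paired reads, and the tail.
iMet-CAT read 2: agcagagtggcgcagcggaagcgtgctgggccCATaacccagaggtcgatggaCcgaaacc
iMet-CAT read 3: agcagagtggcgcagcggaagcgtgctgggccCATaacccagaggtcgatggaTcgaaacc
iMet-CAT read 6: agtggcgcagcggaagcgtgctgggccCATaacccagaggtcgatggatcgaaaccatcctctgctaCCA
iMet-CAT read 7: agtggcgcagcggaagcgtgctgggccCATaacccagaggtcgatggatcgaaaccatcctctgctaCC
iMet-CAT read 1: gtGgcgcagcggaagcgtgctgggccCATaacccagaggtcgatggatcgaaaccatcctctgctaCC
iMet-CAT read 10: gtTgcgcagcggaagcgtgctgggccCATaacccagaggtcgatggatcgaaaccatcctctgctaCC

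Reads are numbered by mean RPM within their label. The 10 iMet-CAT sequences overlapped exactly, or with 1 substitution, and joined into a frame of 75 bases with the anticodon at bases 33 to 35. Positions are counted from 1 at the 5′ end of this frame, and a substitution gives the base of the frame first.

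The Met-CAT reads were set beside the reads of another label that came closest to them. Capitals mark the 2 positions at which the 3 reads differ, the first of which is the middle base of the anticodon.
Met-CAT read 1: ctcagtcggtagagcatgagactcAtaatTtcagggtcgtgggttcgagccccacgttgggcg
Lys-CTT read 1 base away: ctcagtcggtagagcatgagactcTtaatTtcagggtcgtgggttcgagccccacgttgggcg
Most abundant Lys-CTT read of these ends, 2 bases away: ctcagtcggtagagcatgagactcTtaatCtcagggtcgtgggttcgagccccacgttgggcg

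The labels were compared with features of the anticodon loop and the T loop, searched on the read strand only. The motif CCCATAA, the anticodon loop of initiators, occurred in all 10 iMet-CAT sequences and in no other of the 3021 (0.331%). The motif CTCATAA, the loop searched for elongators, occurred in the 3 Met-CAT sequences and in no other (0.0993%). The T loop motif TCGAAA was in 9 of the 10 iMet-CAT sequences and in 1.42% of the table, and TTCGA was in all 3 Met-CAT sequences and in 66.2% of the table. Both loop motifs hold CAT, the anticodon that defines the labels, so their absence under other anticodons gives no support to the labels. Between the members they differ in the base before CAT, and each occurred under its own label only. The Lys-CTT read 1 base from Met-CAT read 1 has CTCTTAA at that place, the same loop but for the anticodon base. Set against every sequence of another label without gaps over at least 50 bases, the iMet-CAT reads had no match with fewer than 18 mismatches. Each of the 3 Met-CAT reads matched a Lys-CTT read of the same ends at every base but 1, the middle base of the anticodon. The name elongator therefore rests on the label and on that base, and whether these reads come from an elongator methionine tRNA was not tested.

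iMet-CAT was most abundant in egg and Met-CAT at 1cell. iMet-CAT stood at 246 RPM in egg, 131 RPM at 1cell and 103 RPM at 256cell, then 106 RPM at sphere and 68.4 RPM at shield, with 72.1 RPM at 24hpf. The egg was highest and the shield and 24hpf libraries were lowest. The intervals of 256cell (92.5 to 115) and sphere (98.1 to 115) overlapped, as did those of shield (60.7 to 76.7) and 24hpf (65.5 to 79.1), so neither pair differed beyond counting error.

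Met-CAT was far rarer, with 10.3 RPM in egg, 37.6 RPM at 1cell and 15.3 RPM at 256cell, then 16.3 RPM at sphere and 9.50 RPM at shield, with 2.93 RPM at 24hpf. The 24hpf value rests on 18 reads. The 1cell library was highest and 24hpf lowest. The interval of 256cell (11.4 to 20.2) overlapped those of sphere (13.2 to 19.9), egg (8.06 to 12.9) and shield (6.78 to 12.9). Those of egg and shield overlapped too. Among the 35 anticodons whose mean reached 10 RPM, the background for every comparison here, iMet-CAT ranked 21 by mean level and Met-CAT ranked 32.

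**Figure D1:**
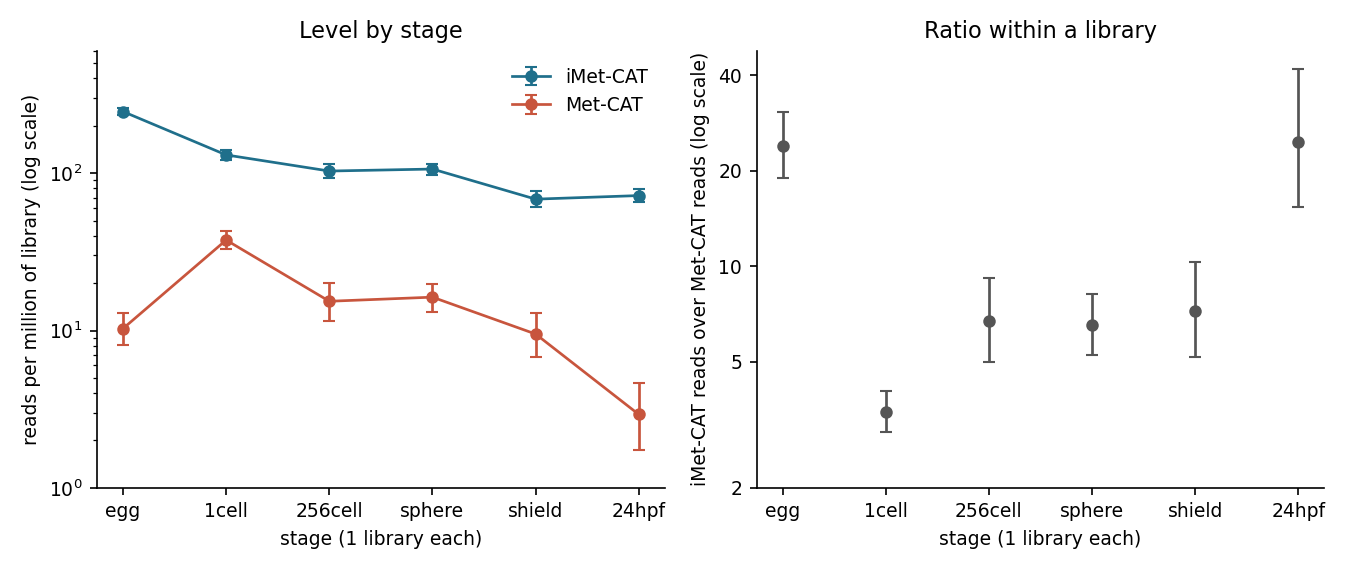
Left, RPM of iMet-CAT and Met-CAT in each library on a log axis, and right, the reads of iMet-CAT over those of Met-CAT in the same library, also on a log axis, with 95% counting intervals as bars. iMet-CAT is highest in egg at 246 RPM, Met-CAT at 1cell at 37.6 RPM, and the ratio is near 24 at both ends of the series and lowest at 1cell at 3.48.

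The ratio of iMet-CAT to Met-CAT reads needs no scaling between libraries. It is a ratio of labels. The Met-CAT reads lay 1 base from Lys-CTT reads, so it is not shown to be the ratio of initiator to elongator tRNA. There were 24.0 iMet-CAT reads per Met-CAT read in egg (19.0 to 30.7), 3.48 at 1cell (3.0 to 4.04) and 6.73 at 256cell (5.0 to 9.21). Sphere followed with 6.52 (5.25 to 8.17), shield with 7.20 (5.16 to 10.3) and 24hpf with 24.6 (15.4 to 41.9). The ratio was thus high at both ends of the series, lowest at 1cell, and not separable among 256cell, sphere and shield. The highest and lowest values differed 7.08-fold. Over the 3 later libraries the log2 ratio averaged 3.39 ± 1.07, against 3.04 ± 1.42 over the 3 earlier ones (SD, n = 3 each). That difference of 0.35 gave p = 0.7 in a two-sided exact permutation test, whose smallest possible p is 0.1. It turned to -0.27 without the 1cell library and to -0.27 without the 24hpf library.

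At 24hpf, against egg, both labels were less abundant. iMet-CAT had 72.1 RPM at 24hpf and 246 RPM in egg, a log2 ratio of shares of -1.98 with 1 RPM added to each value. Without that pseudocount it was -2.0 (-2.15 to -1.85). Met-CAT had 2.93 RPM at 24hpf and 10.3 RPM in egg, a log2 ratio of -1.75, or -2.04 (-2.87 to -1.28) without the pseudocount. Both members were therefore at least 2-fold lower, as were 42.9% of the 35 anticodons. The median over the 35 was -0.66, and iMet-CAT and Met-CAT ranked 8 and 9 from the lowest.

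The size of that difference depended on the scaling and on the library taken as the start. Median-ratio scaling moved the median of all anticodons by 0.74, trimmed-mean scaling by 0.70 and RPM by 0.22. iMet-CAT was then at -1.24, -1.29 and -1.76, and Met-CAT at -1.01, -1.05 and -1.52. Measured from 256cell, iMet-CAT was at -0.97, and measured from 1cell, Met-CAT was at -4.17. Measured at shield, Met-CAT was at -0.24 against egg. As shares, 15 anticodons were at least 2-fold lower and 7 (20%) higher. These counts were 9 lower and 10 higher after median-ratio scaling, and 10 lower and 10 higher after trimmed-mean scaling.

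Between neighbouring stages the labels went apart at first. At 1cell, against egg, Met-CAT was higher by 2.42 on the log2 scale of shares (37.6 RPM at 1cell and 10.3 RPM in egg), while iMet-CAT was at -0.26. At least 2-fold higher in that step were 42.9% of the 35 anticodons, Met-CAT with the second highest ratio, and the median over them was 0.91. iMet-CAT ranked 4 from the lowest. Trimmed-mean scaling left Met-CAT at 1.49 and iMet-CAT at -1.20. At 256cell, against 1cell, Met-CAT was at -1.66, past the 2-fold size with 11.4% of anticodons, and iMet-CAT at -0.75, or -0.20 with median-ratio scaling.

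From 256cell to sphere neither label differed beyond counting error, and at shield both were lower. At sphere, against 256cell, iMet-CAT was at 0.12 and Met-CAT at 0.16, with intervals without the pseudocount of -0.07 to 0.32 and -0.33 to 0.69. At shield, against sphere, iMet-CAT was at -1.08 and Met-CAT at -1.18, and 22.9% of anticodons were at least 2-fold lower. Trimmed-mean scaling left these values at -0.27 and -0.36. At 24hpf, against shield, Met-CAT was lower by a further log2 ratio of -1.50, with 34.3% of anticodons at least 2-fold lower, while iMet-CAT was at -0.01. Other scalings put iMet-CAT at 0.07 (RPM) to 0.65 (median-ratio) in that step and Met-CAT at -0.84 (median-ratio), and the sphere values turned to -0.07 for iMet-CAT and -0.03 for Met-CAT with median-ratio scaling.

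The question whether the labels differ once the embryo's genome is active was put to sphere, shield and 24hpf against egg, 1cell and 256cell. With shares of all listed reads the groups overlapped for both labels. Log2 shares of iMet-CAT averaged -13.01 ± 0.63 over sphere, shield and 24hpf, against -11.82 ± 0.53 over egg, 1cell and 256cell (SD, n = 3 stages each). The difference was -1.19, and the sphere library lay above the 256cell library, so the groups overlapped (two-sided exact permutation p = 0.2). With His-GTG left out of the total, the difference was -1.20 and every later library lay below every earlier one (two-sided exact permutation p = 0.1). Other anticodons were not counted with that total, so this separation is not shown to be particular to iMet-CAT. For Met-CAT the means were -16.20 ± 1.34 over the later and -14.78 ± 1.24 over the earlier libraries, a difference of -1.42 with overlapping groups (two-sided exact permutation p = 0.3). It was -0.74 without 1cell and -0.72 without 24hpf. The smallest p this design allows is 0.1, so neither label could pass the threshold of 0.05. At least 2-fold higher in the later libraries were 8.57% of anticodons, and at least 2-fold lower were 25.7%. The latter, a count of 9, was 0 with median-ratio and with trimmed-mean scaling. The median over the 35 anticodons was -0.48, and iMet-CAT and Met-CAT ranked 7 and 3 from the lowest. With shares of all listed reads, every later library lay below every earlier one in 5.71% of anticodons. That share belongs to the total with His-GTG and is no background for the separation of iMet-CAT with His-GTG left out.

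An edgeR quasi-likelihood test on the recovered reads, which takes the 3 stages of each side as if they were replicates, gave log2 fold changes of -0.84 for iMet-CAT (Benjamini-Hochberg adjusted p = 0.286) and -1.07 for Met-CAT (adjusted p = 0.288). The test used trimmed-mean scaling of the whole libraries and not shares. With that scaling the differences of means were -0.70 for iMet-CAT and -0.93 for Met-CAT. It called 2.86% of the 35 anticodons, namely Lys-TTT, named here after its value was seen, and 7 had an unadjusted p under 0.05.

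No read under iMet-CAT covered the whole frame. Reads 2, 3 and 9 began at the first base and ended at base 60 or 61, inside the T arm. The other 7 began at bases 6 to 16 and ran into the tail. The longest, read 6, had 70 bases and spanned bases 6 to 75. Reads beginning at base 1 held 35.6% of iMet-CAT reads in egg, 44.3% at 1cell and 41.7% at 256cell, then 40.9% at sphere and 25.7% at shield, with 42.4% at 24hpf. The shield share (20.7 to 31.1) lay below the intervals of all 5 other libraries.

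**Figure D2:**
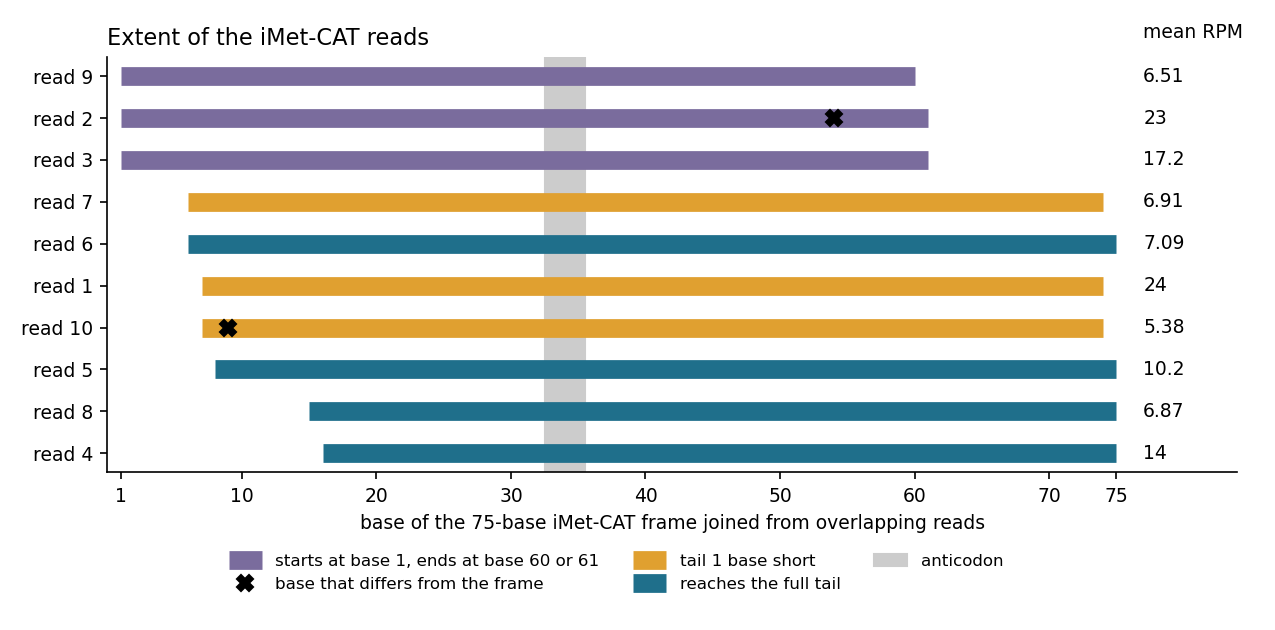
Bars span the bases of the 75-base iMet-CAT frame covered by each of the 10 read sequences, coloured by the end they reach, with the mean RPM over the 6 libraries at the right and crosses at the bases that differ from the frame. Reads 2, 3 and 9 start at base 1 and stop at base 60 or 61, and the other 7 reach base 74 or 75.

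The median iMet-CAT read had 68 nt in egg and 61 nt in the other 5 libraries, within a range of 60 to 70 nt. No sequence under 60 nt was listed for any label, so shorter reads of either member would not be seen. Lengths and end shares are those of listed reads only. Reads of at least 70 nt, close to a complete tRNA, were 5.03% of iMet-CAT in egg, 6.16% at 1cell and 4.37% at 256cell, then 8.31% at sphere and 6.60% at shield, with 5.87% at 24hpf, all from read 6. The sphere interval (6.27 to 10.8) lay just above that of egg (4.05 to 6.16), and no other pair of libraries was separated. In the whole cytoplasmic table reads of this length were 0.306% to 0.850%, and 2.59% to 6.92% outside His-GTG. Read 6 at 24hpf, against egg, was at -1.58 as a share of all cytoplasmic reads, and iMet-CAT was at -0.23 as a share of cytoplasmic reads of at least 70 nt. Met-CAT reads had 61 to 63 nt, with a median of 63 nt in 5 libraries and 62 nt at 256cell, and none reached 70 nt.

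Complete CCA tails were rarer in iMet-CAT than in the whole table, where they ended 86.1% to 90.4% of reads. They ended 23.3% of iMet-CAT reads in egg (21.3 to 25.3), 32.3% at 1cell and 35.9% at 256cell, then 35.5% at sphere and 41.7% at shield, with 36.3% at 24hpf. Reads beginning at base 1 stop before the tail but count in these totals. They held 25.7% of iMet-CAT reads at shield and 44.3% at 1cell, so the CCA share also depends on which end was read. The egg share lay below the intervals of the other 5 libraries. Much of this rested on read 1, of 68 nt and 1 base short of CCA, with 509 of 1749 egg reads. Without it the share was 32.8% in egg, 37.1% at 1cell and 41.3% to 54.1% in the other libraries, and intervals were not computed. The egg median of 68 nt and the short tails described below include the same read. Over the table outside His-GTG, CCA ended 40.7% of reads at 24hpf and 61.5% in egg, where iMet-CAT had 36.3% at 24hpf and 23.3% in egg. At shield the iMet-CAT share was not below the 40.1% outside His-GTG. At 24hpf its interval (31.9 to 41.0) held the 40.7%, so it was not lower there beyond counting error. None of the 3 Met-CAT sequences ended in CCA. The table listed no sequence with fewer than 19 reads over the 6 libraries, so rarer Met-CAT reads with a tail would not be seen.

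The egg stood apart in the last base of the tail. Among iMet-CAT reads that reached the tail, those 1 base short of CCA were 63.9% in egg (61 to 66.7), 42.0% at 1cell and 38.5% at 256cell, then 40% at sphere and 43.9% at shield, with 36.9% at 24hpf. The egg interval lay above all others, and the other 5 overlapped. Read 1, the most abundant of these, had 71.7 RPM in egg and 9.60 to 17.1 RPM in the other libraries. It held 509 of the 719 short-tail reads in egg. Reads 6 and 7, which differ only in that last base, gave 59.6% short tails in egg (52.8 to 66.2), 44.3% at 1cell and 50% at 256cell, then 34.2% at sphere and 44.1% at shield, with 49.0% at 24hpf. In this pair the egg interval overlapped that of every library but sphere. For the 175 such pairs under labels other than iMet-CAT and His-GTG the short share was 22.9% at 24hpf and 13.9% in egg, the lowest of the 6 libraries. For the 112 His-GTG pairs it was highest in egg, at 3.19% (3.18 to 3.21), and 2.80% to 3.11% in the other libraries.

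Single reads under iMet-CAT differed in their course. At 24hpf, against egg, 8 of the 10 iMet-CAT sequences and all 3 Met-CAT sequences were at least 2-fold lower, beside 44.9% of the 3021 sequences of the table. Their medians were -1.95 and -1.29, and that of all sequences -0.78. Met-CAT reads 1, 2 and 3 had only 11, 3 and 4 reads at 24hpf, and reads 2 and 3 lay below the pseudocount of 1 RPM. These counts are for shares, and other scalings were not run for single sequences. Median-ratio scaling moved the median of anticodons by 0.74 in this comparison. Among iMet-CAT reads, reads 1, 9 and 2 differed most, at -3.0, -2.93 and -2.84, while read 3 was at -0.54 and read 8 at -0.52. At 24hpf read 3 stood at 22.8 RPM, against 8.07 RPM at shield, and was then the most abundant iMet-CAT read.

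**Figure D3:**
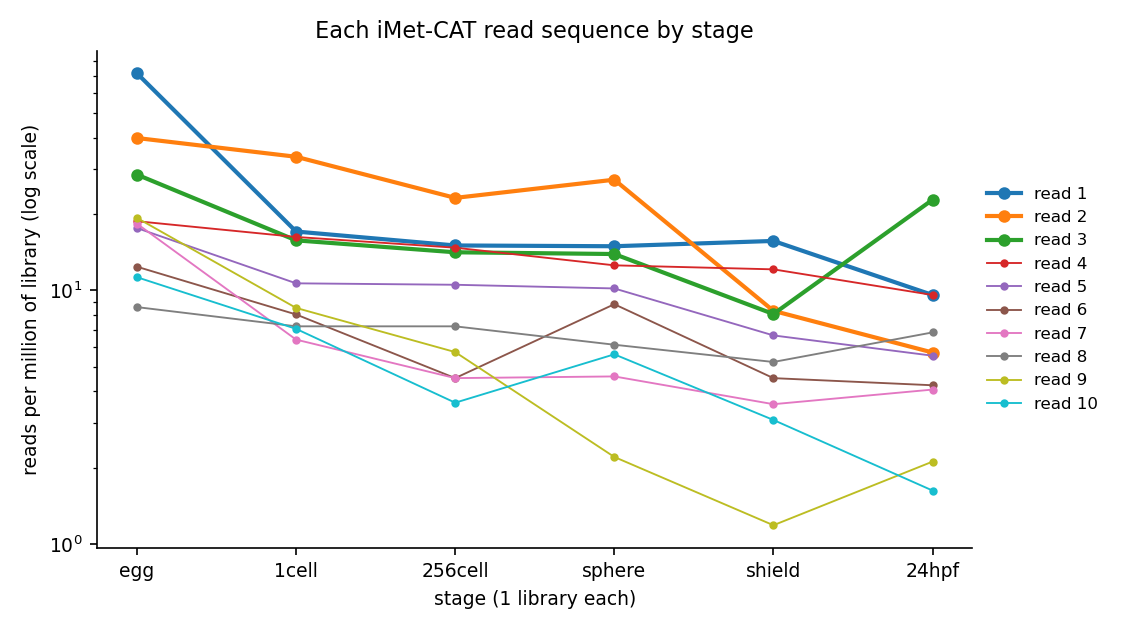
RPM of each of the 10 iMet-CAT read sequences by stage on a log axis, 1 line per sequence and 1 library per stage. Read 1 is highest in egg at 71.7 RPM, read 2 leads from 1cell to sphere, and read 3 is highest at 24hpf at 22.8 RPM.

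Reads 2 and 3 have the same ends and differ in 1 base of the T loop, T54C in read 2. Read 2 had 39.9 RPM in egg, 33.6 at 1cell and 23.2 at 256cell, then 27.3 at sphere and 8.31 at shield, with 5.69 at 24hpf. Read 3 had 28.6, 15.8, 14.1, 13.9, 8.07 and 22.8 RPM in the same order. Within this pair the C form thus led up to sphere, the forms were level at shield, and the T form led at 24hpf. Read 9, which also starts at base 1 but ends at base 60, carries the T and is outside the pair. It had 137 reads in egg, beside 203 for read 3 and 283 for read 2. With read 9 counted, the T form was therefore the more abundant in egg. The C form was 58.2% of the pair in egg (53.7 to 62.7), 68.1% at 1cell and 62.1% at 256cell, then 66.3% at sphere and 50.7% at shield (38.4 to 63.0), with 20% at 24hpf (14.3 to 26.7). The 24hpf interval lay below all others. No listed read that reached the tail carried the C, although all 7 cover that base.

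Base 9 differed in another pair, where read 10 carries G9T and has the same ends as read 1. The T form held 13.6% of this pair in egg (10.9 to 16.6), 29.3% at 1cell (22.0 to 37.3) and 19.4% at 256cell, then 27.3% at sphere (19.6 to 36.1) and 16.5% at shield, with 14.5% at 24hpf. The 1cell and sphere shares were higher than that in egg beyond counting error. No other listed iMet-CAT read carried this T, although reads 2, 3, 5, 6, 7 and 9 cover base 9 too. The shares are therefore those of this pair only.

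**Figure D4:**
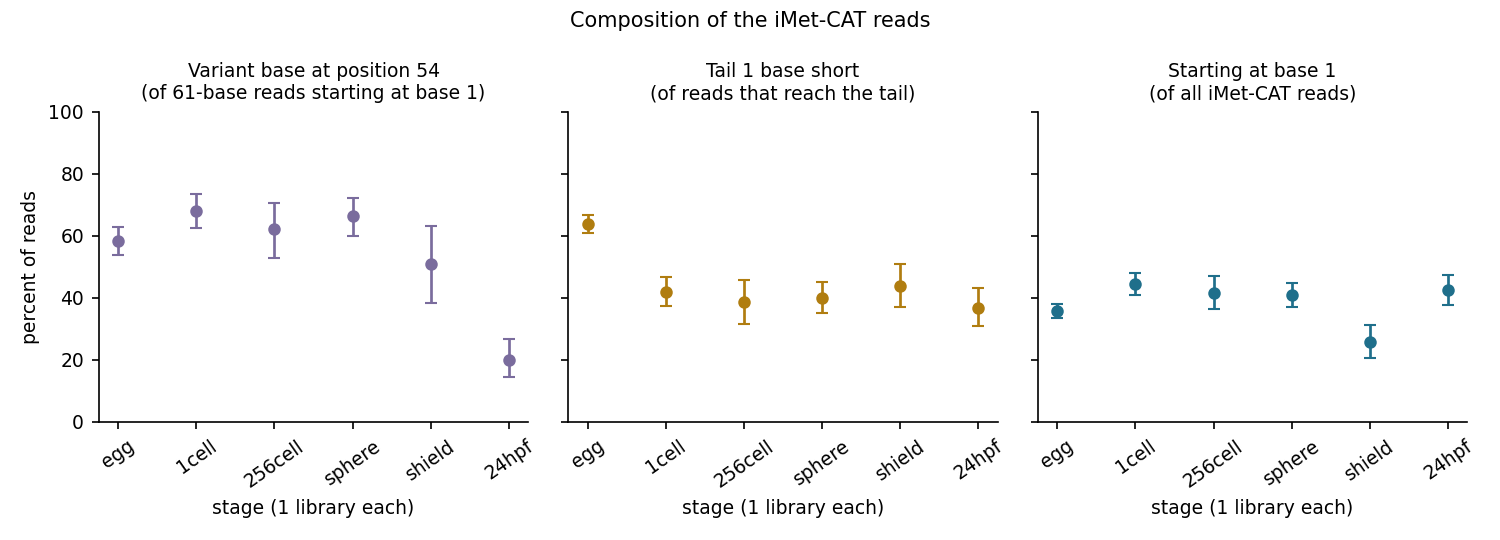
Shares of iMet-CAT reads by stage, with 95% counting intervals as bars and 1 library per stage: the variant base at position 54 among 61-base reads starting at base 1, tails 1 base short among reads that reach the tail, and reads starting at base 1. The variant share is lowest at 24hpf at 20%, the short-tail share highest in egg at 63.9%, and the share starting at base 1 lowest at shield at 25.7%.

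The Met-CAT reads lay 1 base from minor lysine tRNA reads. Each of the 3 Met-CAT sequences, of 63, 62 and 61 nt, had exactly 1 sequence of another label that differed from it in a single base, and each was a Lys-CTT sequence with the same ends. Lys-CTT carries lysine to ribosomes. In the longest read the substitution was T25A, counted from its own 5′ end with the lysine base first. Only these 3 of the 230 Lys-CTT sequences had such a neighbour under another label. The most abundant Lys-CTT read of the same ends differed from Met-CAT read 1 by T25A and C30T.

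Summed over the 3 reads, the Lys-CTT sequences 1 base away had 31.8 RPM in egg, 96.6 RPM at 1cell and 49.3 RPM at 256cell, then 66.2 RPM at sphere and 35.4 RPM at shield, with 11.5 RPM at 24hpf. They were highest at 1cell and lowest at 24hpf, as Met-CAT was. There were 0.323 Met-CAT reads per such read in egg (0.245 to 0.422), 0.389 at 1cell (0.332 to 0.454), 0.311 at 256cell, 0.246 at sphere (0.195 to 0.308), 0.268 at shield and 0.254 at 24hpf (0.142 to 0.430). The highest and lowest of these ratios differed 1.58-fold, and only 1cell and sphere had intervals that did not overlap.

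The 3 most abundant Lys-CTT reads of the same ends, each 2 bases from its Met-CAT read, had a different course. Together they had 6040 RPM in egg, 7268 at 1cell and 7501 at 256cell, then 9318 at sphere and 11354 at shield, with 9984 at 24hpf. They were lowest in egg and highest at shield. A rarer Lys-CTT read, which differed from Met-CAT read 1 by T25A and G30T and is not in these sums, had 13 reads in egg, 46 at 1cell and 6 at 256cell, then 2 at sphere and 1 at shield, with 0 at 24hpf. It was highest at 1cell and lowest at 24hpf, as the reads 1 base away were. Met-CAT was 0.170% of the abundant reads in egg, 0.517% at 1cell and 0.0293% at 24hpf, and the highest and lowest of the 6 values differed 17.6-fold. At 24hpf, against egg, the log2 ratio of shares without a pseudocount was -2.04 for Met-CAT (-2.87 to -1.28), -1.69 for the reads 1 base away (-2.09 to -1.30) and 0.50 for the 3 abundant reads (0.48 to 0.52). At 1cell, against egg, the values were 2.52, 2.25 and 0.92. By read the ratio of Met-CAT to its neighbour ran from 0.206 to 0.294 in the longest and from 0.2 to 0.708 in the shortest read. In the shortest read the 0.2 was at shield, with 5 Met-CAT reads against 25. Its 0.708 was at 1cell, with 51 against 72, where the longest read had 0.294. Counts of the shortest read were as low as 4 reads at 24hpf.

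**Figure D5:**
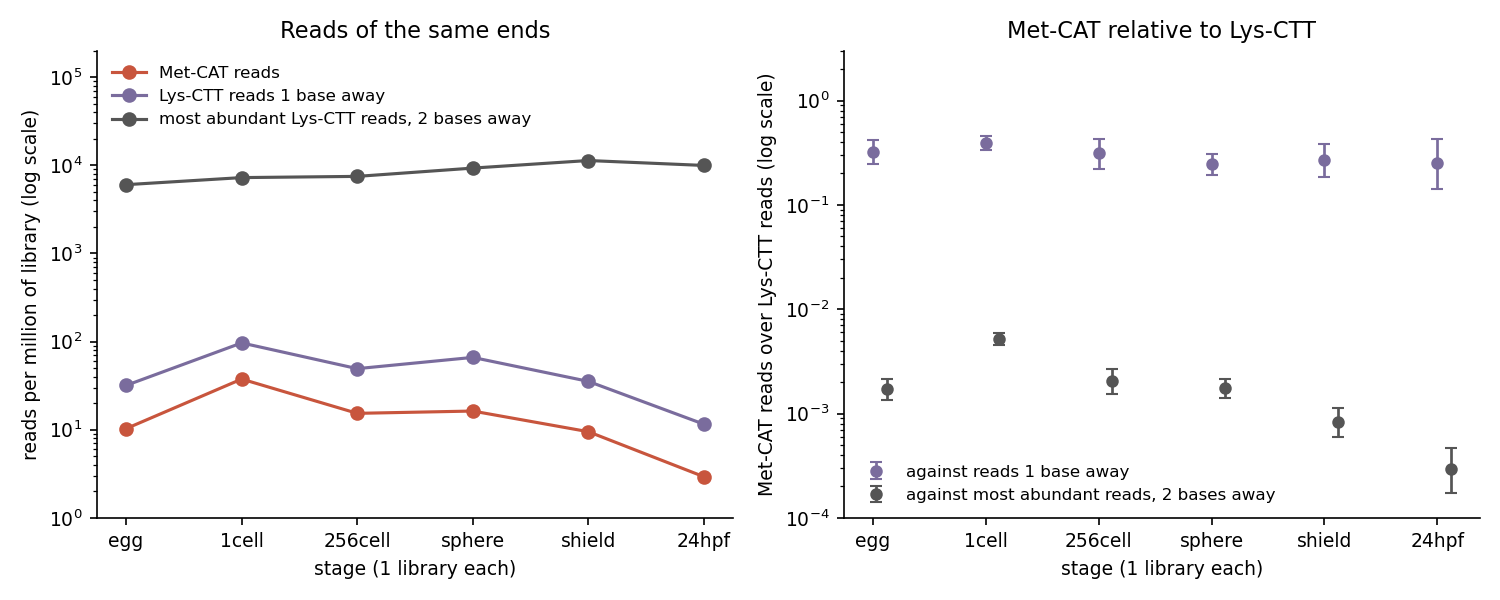
Left, RPM by stage on a log axis of the 3 Met-CAT reads, of the 3 Lys-CTT reads 1 base away and of the 3 most abundant Lys-CTT reads of the same ends, 2 bases away, and right, Met-CAT reads over each of these on a log axis with 95% counting intervals. The ratio to the reads 1 base away stays between 0.246 and 0.389, while Met-CAT as a percentage of the abundant reads lies between 0.0293 and 0.517.

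Likeness in the course over the 6 libraries was measured by the mean absolute difference of log2 shares, each centred on its own mean. Nearest to iMet-CAT among the 34 other anticodons were Gly-GCC at 0.33, Gln-TTG at 0.36 and Gln-CTG at 0.38, with a median of 0.64 over all 34. Nearest to Met-CAT were Pro-AGG at 0.25, Pro-CGG at 0.38 and Thr-TGT at 0.40, with a median of 0.73. All of these share the same libraries and the same total, and the values are a description.

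Other tRNAs of related classes were set beside the members. Cys-GCA, which carries the other sulphur amino acid, had 610 RPM in egg, 953 RPM at 1cell and 833 RPM at 256cell, then 1043 RPM at sphere and 642 RPM at shield, with 394 RPM at 24hpf. Its log2 ratio of shares was -0.85 at 24hpf against egg and 1.29 at 1cell against egg. In that early step Cys-GCA was higher, as was Met-CAT, while iMet-CAT was lower. Of the 10 other anticodons that start with C, 6 were at least 2-fold lower and 3 higher at 24hpf than in egg, as shares. Over all 35 these were 42.9% and 20%. The median was -1.27 in the list and -0.66 over all 35, and other scalings were not run for the list. Mitochondrial trnM, which serves both starts and internal codons inside mitochondria, had 1148 RPM in egg, 3922 at 1cell and 2244 at 256cell, then 2305 at sphere and 742 at shield, with 237 at 24hpf. It was highest at 1cell and lowest at 24hpf, and it outnumbered iMet-CAT in every library, from 3.30-fold at 24hpf to 30.0-fold at 1cell.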

How the data were processed

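Both tables were deposited by the authors in RPM, reads scaled to library size, 1 for distinct cytoplasmic read sequences and 1 for the 22 mitochondrial tRNAs. Cutadapt 3.4, Bowtie2 2.4.2 and the GRCz11 build are named per the submitters' processing notes. Tool settings, and the rule that listed or labelled a read, are not given in sources used here, and gene positions were not used. The deposited RPM values all came in steps of 1 read (100% whole within 0.01 reads), and the steps gave library totals and read counts. RPM values were summed per label, a pseudocount of 1 RPM was put on each sum, and shares were taken of the cytoplasmic total. The background was the 35 of 38 anticodons whose mean reached 10 RPM, and 1 on the log2 scale (2-fold) was the size counted. The count test was edgeR 4.0.16 in R 4.3.3, and the rest used Python 3.11.15 and SciPy 1.17.1. The edgeR test was also run on simulated data that had true replicates, low spread and large changes. Stages differ from that setting, so the simulation does not show how the test performs on them. With 1 library per stage, only the 3 later against the 3 earlier stages were tested, and stages are not replicates. Named items followed a fixed rule: both labels, the 5 most abundant and the longest sequence of each, any sequence with the features of the other label, the 3 anticodons most alike, Cys-GCA and trnM. Reads 7 to 10 and the Lys-CTT reads nearest in sequence were added after their values were seen. Members, lists and tests were chosen with earlier results of these data known. Alternatives were other scalings, pseudocounts, sequence subsets, end libraries and leaving out each library.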

Additional observations from a re-analysis of the deposited data

How the results depend on the processing

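No paired analysis was possible because each stage has 1 library and its replicate number only names it. The direction of both labels at 24hpf against egg was negative in every alternative run. Beside the values in the report, iMet-CAT was at -1.76 in RPM, -1.24 with median-ratio scaling, -1.29 with trimmed-mean scaling, -1.30 among sequences ending in CCA and -0.23 among those of at least 70 nt (each as a share of listed reads of that class) and -1.69 without its most abundant sequence. Measured from 1cell it was at -1.72, and from 256cell at -0.97. Met-CAT was at -1.01 with median-ratio and -1.05 with trimmed-mean scaling, -0.87 with a pseudocount of 10 RPM, -4.17 measured from 1cell and -0.24 measured at shield. Subsets ending in CCA or of at least 70 nt hold no Met-CAT read and gave no value. Later against earlier, iMet-CAT kept overlapping groups in the other scalings (exact permutation p = 0.2 each) but not with His-GTG left out (-1.20, exact permutation p = 0.1). How many other anticodons were separated with His-GTG left out was not counted. Leaving out 1 library gave -1.55 to -0.98 for iMet-CAT, -2.06 to -0.72 for Met-CAT and -0.27 to 1.12 for their log2 ratio, with the ratio turned to -0.27 without 1cell and to -0.27 without 24hpf. Without the most abundant sequence of each label the ratio was 41.3 in egg, 6.35 at 1cell and 11.3 at 256cell, then 13.45 at sphere and 13.9 at shield, with 54.9 at 24hpf, and with only sequences holding the features of their label it was 2.58 at 1cell and 4.84 at sphere. The share of iMet-CAT reads ending in CCA was 100% at all stages among reads of at least 70 nt, which are a single sequence. Without the most abundant sequence it was 32.8%, 37.1%, 42.0%, 41.3%, 54.1% and 41.9% from egg to 24hpf. With a limit of 68 nt in the place of 70 the longer reads were 53.3%, 37.7%, 37.0%, 41.5%, 49.0% and 34.8%, and without the most abundant sequence reads of at least 70 nt were 7.10% in egg. At least 2-fold lower later than earlier were 9 anticodons in the main scaling, 5 in RPM or with a pseudocount of 10 RPM, and 0 with median-ratio or trimmed-mean scaling. At 24hpf against egg 15 were lower, or 9 with median-ratio scaling. With a filter of 100 RPM the anticodon nearest to Met-CAT was Pro-CGG at 0.38. The cause of these shifts was not tested. Depth limits Met-CAT most, with 18 reads at 24hpf. The runs without a pseudocount and with sequences of at least 68 nt were chosen after seeing the data.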

Other observations

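Single-base neighbours under another label were uncommon in the table. Of the 3021 sequences 153 (5.06%) differed in 1 base from a sequence of the same length under another label. None of the 10 iMet-CAT sequences did, and all 3 Met-CAT sequences did. Met-CAT was among 6 of the 38 labels for which every sequence had such a neighbour, with His-ATG (3 sequences), Leu-TAG (1), Pro-AGG (9), Pro-CGG (9) and Thr-AGT (1). Their neighbours' levels were not compared here.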
